A study of Mus musculus with 12 samples.

Results

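The gene table of this series lists small nucleolar RNA genes and microRNA genes as entries of their own, and they are described here. Members were taken by name: every entry whose symbol began with Snora, Snord or Scarna and a number, or read Mir followed by a number with at most a letter and a copy number. The rule found 729 of the 21030 genes in the table: 32 Snora, 65 Snord, 9 Scarna and 623 Mir genes. No measured value entered the choice.

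Snord genes encode box C/D small nucleolar RNAs, which guide the methylation of ribose in other RNAs, and Snora genes encode box H/ACA RNAs, which guide the change of uridine to pseudouridine. Both act mainly on ribosomal RNA in the nucleolus, while Scarna genes encode relatives that act on spliceosomal RNAs in Cajal bodies. Mir genes encode hairpins that the nuclease Drosha cuts from a longer transcript and Dicer trims to a microRNA, which lowers the output of target messenger RNAs. In mammals most small nucleolar RNAs and many microRNAs are cut out of introns of a host gene, so an RNA-seq read over such a gene can come from the mature RNA, its precursor or the unspliced host. In the developing spinal cord, miR-9 and miR-124 are known for their part in neuron formation, and the miR-10 and miR-196 genes lie in the Hox clusters that set position along the body.

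The cells came from the spinal cords of C57BL/6 mouse embryos (wild type, embryonic day 12) and were cultured for 48 hours before RNA-seq. All wells carried poly-D-lysine (20 μg/ml), a polymer that cells stick to. This was the whole coat in the PDL group; the Laminin group added laminin (1 μg/ml), the Myelin group added membranes of wild-type myelin (10 μg/ml), and the fourth group added both. Each of the 4 coats had 3 libraries, numbered 1 to 3, and the labels call them biological replicates but name no litter or day. P-values here therefore reflect only how these libraries vary, which may be technical in part. The libraries were made with a TruSeq RNA kit and not with a small RNA kit, per the labels, and what form of RNA gave the reads over these short genes was not measured.

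By position in GENCODE M21 (mouse build GRCm38), 727 members were matched. Of these, 385 lay in an intron of a gene on their own strand, 80 in an exon of a host transcript outside the basic annotation (58 of them only in transcripts typed as retained introns), and 85 in an exon of a basic host transcript. A further 50 lay only antisense to a gene and 127 outside any gene. Introns held 36 of the 65 Snord, 13 of the 32 Snora and 330 of the 623 Mir genes. Hosts numbered 466, and those with the most members were Mirg (13), Sfmbt2 (11) and Rpl13a (5).

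The following small nucleolar RNAs, as the GENCODE M21 transcripts give them, are shown because the comparisons turn on them or because they had among the most counts of their class. In the first 3, capitals mark the C box TGATGA within the first 20 bases and the D box CTGA within the last 14 bases, searched on the RNA's own strand. In the last 3, capitals mark the ACA that stands 3 bases from the end. Their places are chr17:71640879-71640956 (plus strand) for Snord53, chr10:81178950-81179013 (plus) for Snord37, chr7:59978808-59978874 (minus) for Snord64, chr15:98519716-98519853 (minus) for Snora34, chr2:26639190-26639321 (minus) for Snora17 and chr6:115807975-115808114 (minus) for Snora7a.
Snord53: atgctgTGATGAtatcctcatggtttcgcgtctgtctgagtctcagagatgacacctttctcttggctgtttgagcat
Snord37: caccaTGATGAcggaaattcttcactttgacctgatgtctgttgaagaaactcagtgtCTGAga
Snord64: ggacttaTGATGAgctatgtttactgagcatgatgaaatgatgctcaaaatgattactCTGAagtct
Snora34: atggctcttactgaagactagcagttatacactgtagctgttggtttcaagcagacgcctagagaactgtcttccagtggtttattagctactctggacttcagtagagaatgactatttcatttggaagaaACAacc
Snora17: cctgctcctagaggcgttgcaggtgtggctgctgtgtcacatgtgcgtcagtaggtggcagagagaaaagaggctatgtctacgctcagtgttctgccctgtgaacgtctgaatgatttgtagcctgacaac
Snora7a: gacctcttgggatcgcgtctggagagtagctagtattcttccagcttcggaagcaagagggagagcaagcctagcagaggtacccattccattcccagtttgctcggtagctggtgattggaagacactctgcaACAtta

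These letters followed the class names. TGATGA stood within the first 20 bases of 39 of the 65 Snord genes (60.0%) and of 0 of the 32 Snora genes, and CTGA within the last 14 bases of 58 Snord genes (89.2%) and 2 Snora genes (6.25%). ACA stood exactly 3 bases from the end of 26 Snora genes (81.2%) and 0 Snord genes. Snord53 as annotated has no CTGA in its last 14 bases, and Snora17 has no ACA at that exact distance.

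For the microRNA genes, RefSeq's table (GRCm38.p6) held an entry for 565 of the 623 members. The mature sequences below belong to genes that the comparisons turn on or that carry a named seed family, with the seed (bases 2 to 8) in capitals. They lie at chr3:157544285-157544306 (plus strand) for Mir186, chr1:92850381-92850403 (plus) for Mir149, chr7:61940036-61940058 (minus) for Mir344-2, chr17:17830817-17830840 (plus) for Mir125a, chr12:109742422-109742446 (plus) for Mir541, chr11:96317186-96317208 (plus) for Mir10a, chr2:74726074-74726096 (plus) for Mir10b, chr11:96265187-96265208 (plus) for Mir196a-1 and chr13:83738821-83738843 (plus) for Mir9-2.
Mir186 (5p arm): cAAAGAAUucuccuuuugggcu
Mir149 (5p arm): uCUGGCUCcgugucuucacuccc
Mir344-2 (3p arm): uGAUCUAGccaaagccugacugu
Mir125a (5p arm): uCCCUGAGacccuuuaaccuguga
Mir541 (5p arm): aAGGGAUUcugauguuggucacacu
Mir10a (5p arm): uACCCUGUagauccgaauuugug
Mir10b (5p arm): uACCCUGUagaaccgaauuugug
Mir196a-1 (5p arm): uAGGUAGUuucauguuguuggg
Mir9-2 (5p arm): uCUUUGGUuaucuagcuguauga

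The seed of Mir10a was shared with Mir10b, and those of Mir125a, Mir196a-1, Mir344-2 and Mir9-2 each with 2 more members. The genes of one seed were counted unequally. Mir9-2 had a mean count of 171 over the 12 libraries, whereas Mir9-1 had 9.33 and Mir9-3 had 0.833. Mir10a (21.2) and Mir10b (15.6) were close, and Mir125a (7.58) and Mir125b-1 (7.33) were close as well, with Mir125b-2 at 0.0833.

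Members drew few reads. Between 36061511 and 45024091 reads per library were counted in genes, of which 4001 to 7872 fell on members, and 343 to 506 members were detected in a library. As a check of the tissue, all 8 neuronal and all 8 spinal Hox markers were detected, and the neuronal markers summed to 8102 to 10510 CPM. Only 177 members had a count in all 12 libraries. The median of the mean counts was 13.6 for Snora, 8.58 for Snord, 4.58 for Scarna and 0.667 for Mir genes, and 354 Mir genes averaged under 1 count. Most single Mir genes are therefore at a depth where a difference between coats was not detectable.

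Coated wells had lower summed levels of microRNA genes than PDL wells. Levels are CPM, counts scaled to 1000000 reads in genes after TMM scaling of library sizes. Mir6236, the member with the most counts, ranged from 11.7 to 50.4 CPM in the coated libraries and from 27.2 to 37.5 on PDL, and was set apart. The other 622 Mir genes summed to 110, 117 and 98.0 CPM in PDL replicates 1, 2 and 3, and to 54.3, 82.6 and 83.4 on Laminin. They summed to 60.3, 59.9 and 68.5 CPM on Myelin and to 62.8, 65.4 and 71.3 on laminin plus myelin. Each PDL library lay above the other 9, and PDL exceeded the coated mean by 1.60-fold (1.87-fold, 1.69-fold and 1.32-fold within replicate numbers 1, 2 and 3). In bulk RNA, fewer cells of a type and less RNA per cell cannot be told apart.

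Summed small nucleolar RNAs differed by replicate number. Within each number the PDL library was the highest for Snora and for Snord genes. Across numbers, PDL and coated libraries overlapped for both classes. Snora genes summed to 16.8, 26.1 and 24.9 CPM on PDL, 7.79, 17.5 and 19.4 on Laminin, 9.18, 14.8 and 23.7 on Myelin and 10.0, 16.3 and 19.8 on laminin plus myelin. In each coat the library numbered 1 was the lowest. The 65 Snord genes had the same low library in each coat, with 25.1, 34.6 and 38.0 CPM on PDL and 16.3, 26.9 and 28.7 on Laminin. They had 16.7, 22.1 and 29.8 CPM on Myelin and 16.3, 27.0 and 28.0 on laminin plus myelin. The mean of the 4 libraries numbered 3 was 2.01-fold that of the 4 numbered 1 for Snora and 1.67-fold for Snord genes, against 1.12-fold for Mir genes without Mir6236. Snord64, the Snord gene with the most counts, was at 3.52, 2.84 and 3.07 CPM on PDL and at 1.47 to 3.09 elsewhere, which overlap. Scarna genes ranged from 1.75 to 1.89 CPM on PDL and from 0.601 to 1.48 on the other coats.

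**Figure D1:**
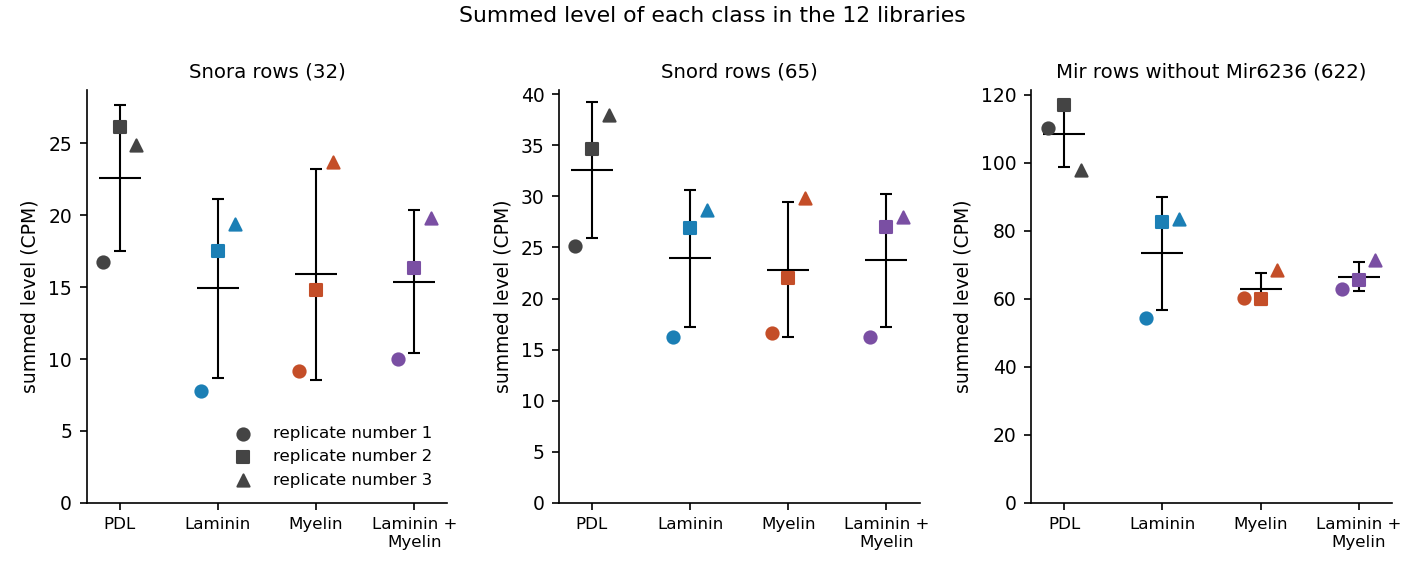
Summed level (CPM, linear axis from 0) of Snora, Snord and Mir genes (the last without Mir6236) in each of the 12 libraries, by coat. Points are libraries (shape gives the replicate number), and bars are the mean ± SD of 3. Libraries numbered 1 are the lowest in each coat for Snora and Snord genes, and PDL stands above the other coats for Mir genes.

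The 3 added coats were pooled and compared with PDL by edgeR's quasi-likelihood test on all genes, with Benjamini-Hochberg adjusted p-values and a threshold of 0.05. With the usual expression filter, 14 of 138 members fell and 0 rose, beside 6.34% of all 15737 genes called in either direction and 5.78% called lower. Of those 138 members, 29 reached the filter's level in at most 2 coated libraries, so the filter could favour falls. Among the 14 that fell, Mir125a, Mir135a-2, Mir149 and Mir3535 reached it in 0 coated libraries and were tested only because they are high on PDL. Among the 101 members with a mean count of at least 10 over all 12 libraries, 12 fell, beside 6.56% of 15219 genes called in either direction. Without a filter, 13 of 729 members fell, beside 3.78% of all genes called in either direction. By class, 10 of 54 Mir, 1 of 20 Snora and 1 of 26 Snord genes fell under the mean count filter, with median log2 changes of -0.81, -0.56 and -0.50, beside 0.02 for all genes. In all, 85 of these 101 members were below 0.

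Mir186, in an intron of the splicing-related gene Zranb2, had the smallest p. Its level was 3.05, 3.00 and 2.57 CPM in the PDL libraries, and 0.524 at the lowest, 1.11 at the median and 1.64 at the highest of the 9 coated libraries. The groups did not overlap, and Mir186 fell by 1.37 ± 0.25 on the log2 scale (SE; edgeR adjusted p = 0.0106). Mir344-2, in an intron of the noncoding gene A330076H08Rik, was at 2.11, 1.84 and 1.23 CPM on PDL and at 0.214, 0.634 and 1.09 (lowest, median, highest) on the other coats. It fell by 1.52 ± 0.32 (adjusted p = 0.0190). Mir1839, within an exon of the noncoding gene 2900076A07Rik, was at 0.834, 1.08 and 0.945 CPM on PDL and at 0.185, 0.399 and 0.528 elsewhere. It fell by 1.34 ± 0.28 (adjusted p = 0.0197), again without overlap.

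Mir541, from the imprinted Dlk1 to Mirg cluster on chromosome 12, was at 0.651, 0.841 and 0.525 CPM on PDL and between 0.0714 and 0.290 on the other coats, a change of -1.82 ± 0.39 (edgeR adjusted p = 0.0213). Mir709, in an intron of the transcription factor gene Rfx1, changed by -1.66 ± 0.37 (0.0237), Mir1898, in an intron of the RNA-binding protein gene Zfr, by -1.36 ± 0.32 (0.0301), and Mir135a-2, in an intron of the neural noncoding gene Rmst, by -1.54 ± 0.36 (0.0295). Called members also included some with mean counts under 10, Mir135a-2 among them. Mir125a, in Spaca6, had 18, 26 and 10 counts on PDL and 0 to 6 in the other libraries. Mir3535, which GENCODE M21 does not list under that name, had 10, 23 and 12 counts on PDL and 3 to 9 elsewhere.

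Mir149, in an intron of the glypican gene Gpc1, was the most uneven among the added coats. It had 13, 15 and 10 counts on PDL, 4, 9 and 10 on Laminin, 7, 2 and 4 on laminin plus myelin, and 1 in each Myelin library. PDL exceeded Myelin by 13.2-fold, with a 95% exact interval from counting error alone of 4.2 to 67.0, and the groups did not overlap. Mir149 passed the expression filter through the PDL libraries alone, so its edgeR adjusted p of 0.0282 in Myelin against PDL rests on a member that had to differ; it was 0.0316 in the fit of all 21030 genes without a filter. With 1 library left out, Mir149 remained called in 1 of 6 cases (highest adjusted p 0.186). Gpc1 itself was at 130 ± 18.0 CPM on PDL (SD, n = 3) and 133 ± 11.6 on the other coats (n = 9).

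Among small nucleolar RNAs, Snora43 and Snord53 fell. Snora43, on chromosome 2, was at 0.990, 1.26 and 1.13 CPM on PDL and at 0.211, 0.333 and 0.683 (lowest, median, highest) on the other coats, a change of -1.60 ± 0.34 (edgeR adjusted p = 0.0201). GENCODE M21 lists 2 entries under that name. Snord53, in an intron of the ribosome biogenesis gene Wdr43, was at 0.912, 1.63 and 1.16 CPM on PDL and at 0.324, 0.528 and 0.885 elsewhere. It fell by 1.18 ± 0.29 (adjusted p = 0.0358), with no overlap but with PDL replicate 1 at 0.912 next to Laminin replicate 2 at 0.885. Without 1 library, Snord53 remained called in 3 of 12 cases (highest adjusted p 0.281, without PDL replicate 2), and with the block in 12 of 12.

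The counts of calls rested on the PDL libraries. Without PDL replicate 1 or PDL replicate 2, 0 members were called, and without Myelin replicate 2 the count was 9. Mir1898 remained called in 5 of 12 such cases and Mir135a-2 in 6. With the replicate number as a block, 53 of 138 members fell and 0 rose, beside 24.8% of all genes called and 14.8% called lower. With that block, 16 and 11 fell without PDL replicates 1 and 2. For the fits with 1 library left out, the percentage of all genes called is not given here. The losses can therefore not be read as particular to the members.

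**Figure D2:**
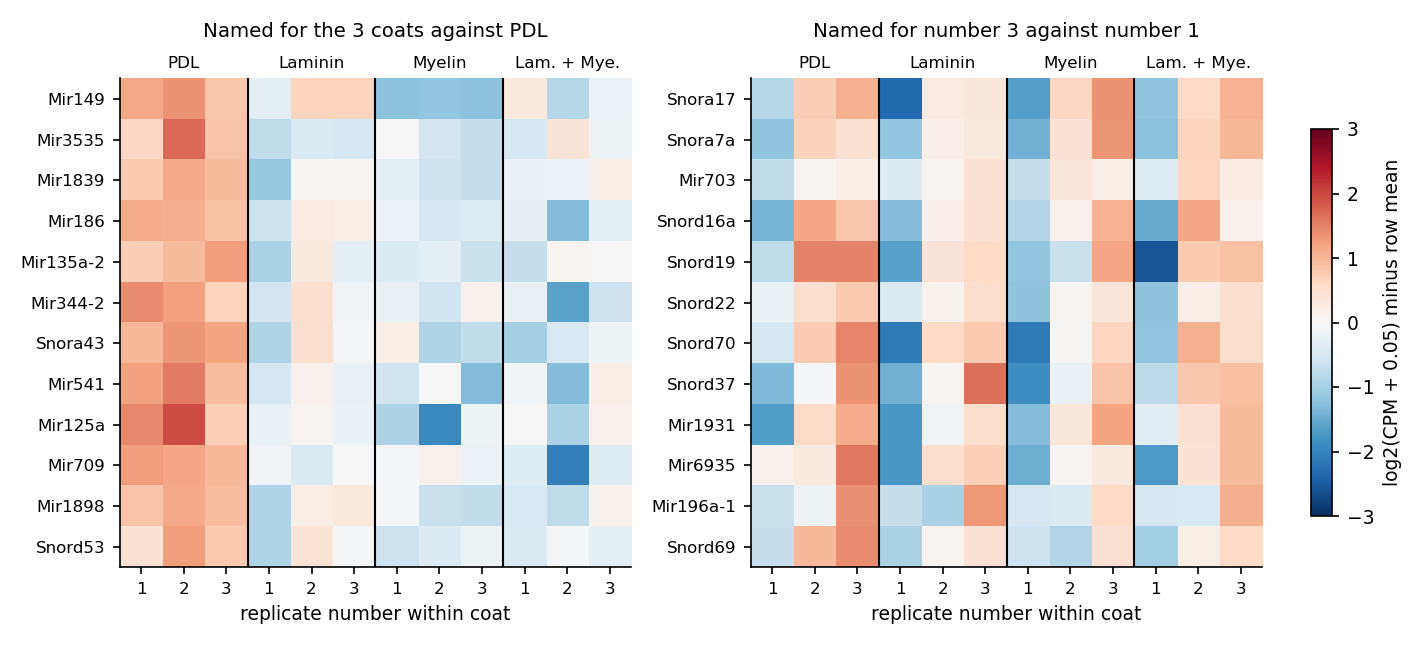
Level of the 12 members named for the 3 coats against PDL (left) and of the 12 named for replicate number 3 against 1 (right) in each library, as log2(CPM + 0.05) minus the row mean (colour). Columns are libraries grouped by coat and ordered by replicate number. Rows were picked by the smallest p in these same comparisons. High PDL columns on the left and low columns numbered 1 on the right therefore follow from the choice. On the left, Mir125a, Mir135a-2, Mir149 and Mir3535 reached the expression filter's level in 0 coated libraries.

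Single coats gave few calls without the block. In Myelin against PDL, Mir149, tested through its PDL level alone, was the one member called (1 of 138, beside 2.29% of all genes). In laminin plus myelin against PDL, Mir186 fell by 1.63 ± 0.33 (edgeR adjusted p = 0.0475; 1 member, beside 1.25%), a call that held in 0 of 6 cases with 1 library left out and in 5 of 6 with the block. Laminin against PDL gave 0 members in edgeR, beside 0% of all genes; 32 members had an unadjusted p under 0.05, beside 17.4% of all genes, and DESeq2 called 2. With the block, 34 members fell in Myelin against PDL (beside 14.4%), 14 in Laminin (8.15%) and 26 in laminin plus myelin (13.6%). The percentages count all genes called in either direction. These comparisons share the PDL libraries. Snord98, in an intron of Ccar1, was the small nucleolar RNA with the smallest p in Laminin against PDL. It had 23, 34 and 51 counts on PDL, 0, 6 and 9 on Laminin, 7, 7 and 20 on Myelin and 10, 32 and 14 on laminin plus myelin, and its adjusted p was 0.157 without and 0.0171 with the block.

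Differences among the 3 added coats were not called. Myelin against Laminin, laminin plus myelin against Laminin, and laminin plus myelin against Myelin each gave 0 members in DESeq2 and in edgeR with and without the block, beside 0.0254%, 0.0191% and 0% of all genes called in edgeR without the block. At an unadjusted p under 0.05 there were 8, 1 and 2 of 138 members, beside 1.63%, 1.28% and 0.184% of all genes. The interaction of myelin with laminin also gave 0 (beside 0%), and 13 of 138 members had an unadjusted p under 0.05, beside 6.62% of all genes. Its log2 value was above 0 for 118 of 138 members, and the median of all genes was -0.01. In this contrast a positive value means that both coats together lowered a member by less than the sum of the single effects. A member that is high on PDL and alike on the 3 added coats is positive by construction. Of the 138 members, 29 reached the filter's level in at most 2 coated libraries, so the count is no separate result. The transcripts of 8 oligodendrocyte markers summed to 64.5 ± 7.99 CPM on PDL and 65.7 ± 13.5 on Laminin, and to 536 ± 280 on Myelin and 376 ± 99.5 on laminin plus myelin (SD, n = 3 each). Their part in the differences was not tested.

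The table also counts reads that met no annotated feature. They made up 17.4% to 19.4% of all reads on PDL and 8.46% to 13.7% in the 9 coated libraries. The difference was 6.55 percentage points (exact permutation test, two-sided, p = 0.00909). That is the smallest p when all libraries are shuffled freely, and the replicate number was not used. Set against those reads, the level of Mir genes without Mir6236 varied less between libraries. Mir genes without Mir6236 had 420 ± 16.0 counts per 1000000 no_feature reads on PDL (SD, n = 3) and 436 ± 26.1 in the coated libraries (n = 9). Over the 12 libraries this ratio ranged from 407 to 477, a span of 1.17-fold, whereas the CPM of the same genes spanned 2.16-fold and the no_feature share 2.29-fold. The narrow span holds only without Mir6236. With it, Myelin replicate 1 had 2917 Mir counts beside 5825752 no_feature reads. Myelin replicate 2 had 3878 Mir counts beside 5148837 such reads.

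The small nucleolar and Cajal body RNAs kept a wider range on that scale. They had 190 ± 19.04 counts per 1000000 no_feature reads in the libraries numbered 1, 252 ± 22.7 in those numbered 2 and 298 ± 34.1 in those numbered 3 (SD, n = 4 each). By coat they had 221 ± 47.8 on PDL (n = 3) and 255 ± 53.3 on the other coats (n = 9). Within each number PDL was the lowest of the 4 libraries, at 172.8 beside 182.2 to 216.8 in number 1, 222.7 beside 251.4 to 277.6 in number 2 and 268.4 beside 269.9 to 335.5 in number 3. The ratio spanned 1.94-fold over the libraries.

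**Figure D3:**
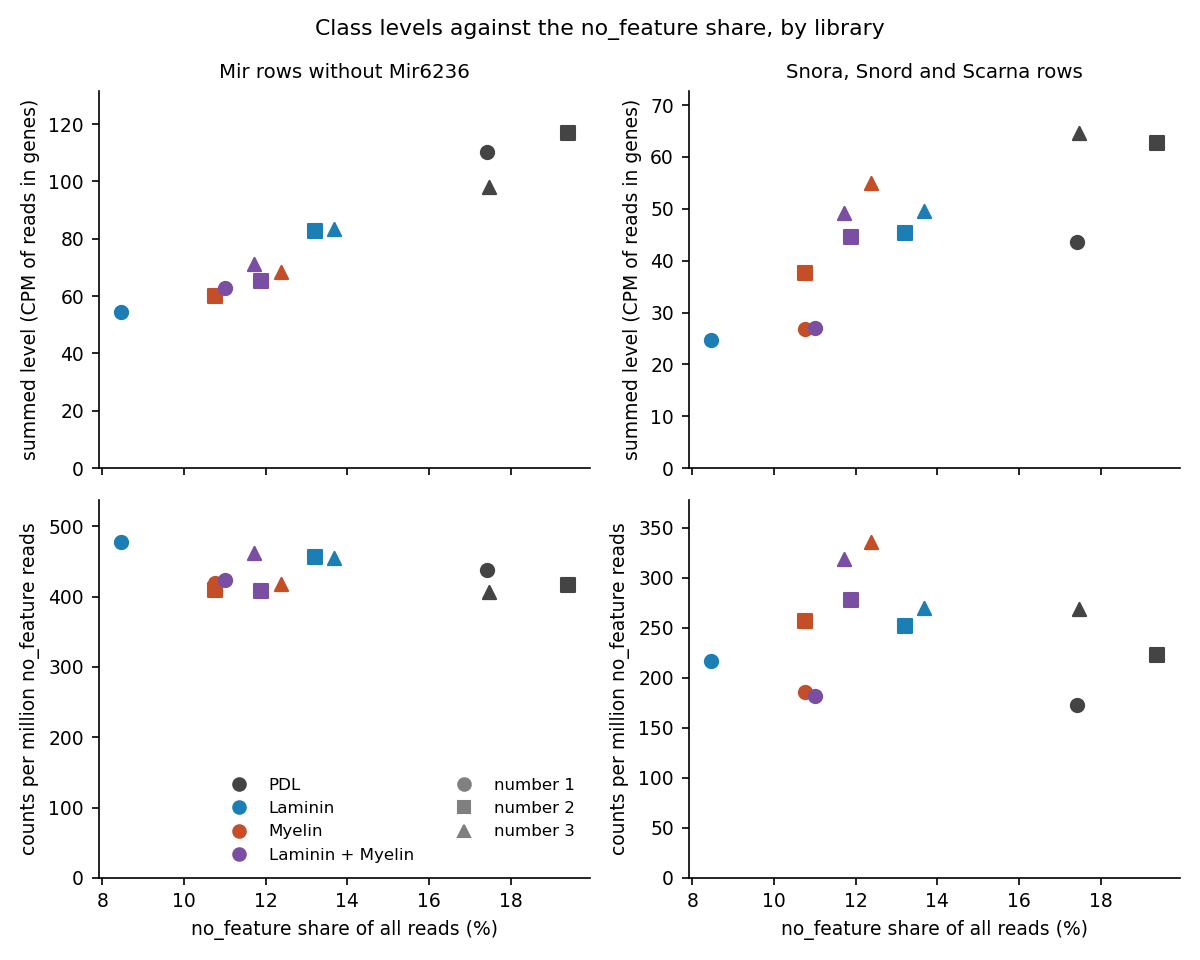
Summed Mir genes without Mir6236 (left) and Snora, Snord and Scarna genes (right) against the share of reads that met no feature (%), as CPM (top) and as counts per 1000000 no_feature reads (bottom), 1 point per library (colour for coat, shape for replicate number). The Mir ratio, which leaves out Mir6236, stays between 407 and 477 at every share. On the right the library numbered 1 is the lowest of its coat and the one numbered 3 the highest.

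Gene by gene, 57 of 138 members rose with the no_feature share across the 12 libraries and 0 fell in edgeR. Beside them, 25.7% of all genes were called and 13.3% called higher. Under the mean count filter 43 of 101 rose, beside 26.4% of all genes called in either direction. Snord53 rose by 1.94 ± 0.26 on the log2 scale per 10 percentage points (adjusted p = 0.000268), and Mir3064, within an exon of the helicase gene Ddx5, by 1.39 ± 0.20 (0.000366). Mir3064, which the coats against PDL called only with the block (adjusted p = 0.0143 with the mean count filter, 0.0730 without the block), was at 11.6, 13.4 and 10.6 CPM on PDL and at 3.58 to 9.81 on the other coats, with Laminin replicate 1, the library of the lowest share, at the bottom. Snora34, in an intron of Kansl2, was at 0.834, 1.45 and 1.16 CPM on PDL and at 0.162 to 0.749 elsewhere. It rose by 2.50 ± 0.38 (0.000651) and Snora81, in the translation factor gene Eif4a2, by 1.92 ± 0.33 (0.00137). Coat and share cannot be told apart across all libraries. With the share as a covariate, 0 members and 0% of all genes were called for the coats against PDL. With coat as a term, 0 members were called for the share (beside 0.0572% of all genes), and 7 of 138 with coat and block (beside 9.37%). Without the 3 PDL libraries the share gave 0 calls among 116 members (beside 0.258%).

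Most members had a lower log2 value in this comparison than the genes that hold them. For 76 members with a mean count of at least 10, the host gene (65 distinct hosts) was also tested. In the 3 coats against PDL the member's log2 change was below that of its host in 68 of 76 pairs. The median change was -0.75 for members and -0.01 for hosts. Mir186 was at -1.37 ± 0.25 and its host Zranb2 at -0.28 ± 0.07, with Zranb2 at 203 ± 13.9 CPM on PDL and 167 ± 10.4 elsewhere. Snord53 was at -1.18 ± 0.29 and Wdr43 at -0.11 ± 0.09. Snora81 was at -1.03 ± 0.34 (edgeR adjusted p = 0.0964, and 0.00404 with the block) and Eif4a2 at 0.04 ± 0.09. For Mir344-2 the host fell as well, with A330076H08Rik at -1.21 ± 0.17 (edgeR adjusted p = 0.00600).

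Position in the host went with the size of the gap. Members in introns were below their host in 27 of 28 pairs, with a median difference of -0.88, members in exons of non-basic transcripts in 28 of 30 (-0.64), and members in exons of basic transcripts in 13 of 18 (-0.34). The summed level of intronic Mir genes was 2.04-fold higher on PDL than on the other coats. That of Mir genes in non-basic exons was 2.00-fold higher, in basic exons 1.48-fold, outside genes (without Mir6236) 1.32-fold and antisense 1.16-fold. These shares are a description of overlapping annotation, and the counting program's strand setting is not given in the sources used here. Across the 76 pairs the member's and the host's change had a Pearson r of 0.55; pairs are not independent, since hosts hold several members and all values come from the same libraries.

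**Figure D4:**
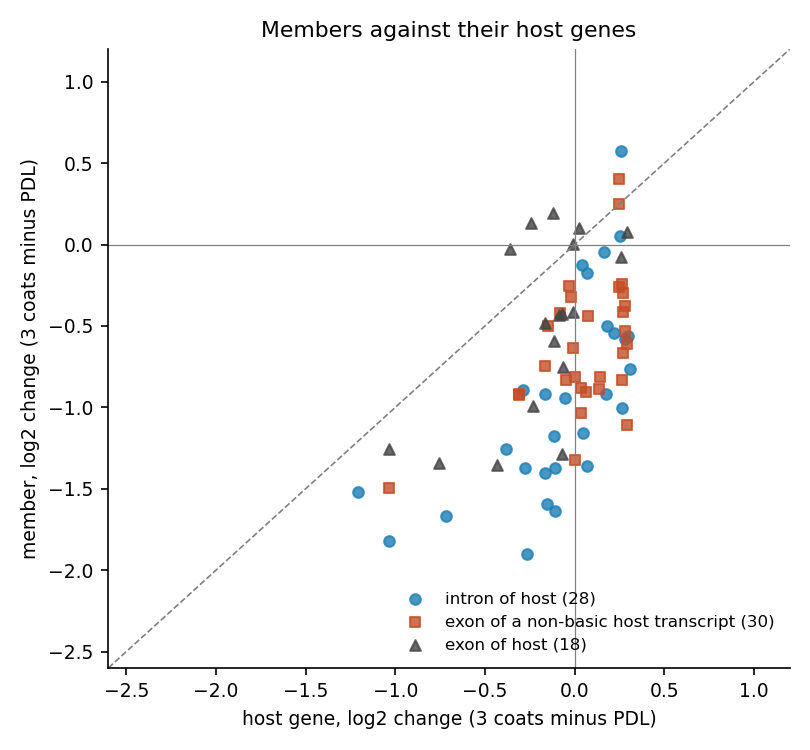
Log2 change (3 coats minus PDL) of 76 members against that of their host gene, by place of the member in the host (colour and shape); the dashed line marks equal change. Most points, 68 of 76, lie below the line, with hosts near 0 and members mostly between 0 and -2.

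The replicate number was then tested as a factor of its own, with coat as a covariate, because libraries of the same number deviated together across all genes. In number 3 against number 1, 48 of 138 members rose and 2 fell (edgeR; beside 43.9% of all genes called, 23.1% higher and 20.8% lower). Under the mean count filter, 12 of 20 Snora, 13 of 26 Snord and 7 of 54 Mir genes rose. Beside them, 43.8% of all genes were called in either direction, a share that also holds falls. Median log2 changes were 0.94, 0.83 and 0.11, beside -0.02 for all genes. The members that fell were Mir331 (-0.76 ± 0.26 with that filter) and Mir7666 (-0.67 ± 0.24), named here after their values were seen. In number 2 against 1, 23 of 138 rose, and in number 3 against 2, 2 rose. Beside them, 18.8% and 15.6% of all genes were called in either direction.

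Snora17, on chromosome 2, was at 0.730, 0.231, 0.395 and 0.564 CPM in the libraries numbered 1 (PDL, Laminin, Myelin, laminin plus myelin). It was at 2.31, 1.62, 2.11 and 2.09 CPM in those numbered 2 and at 2.91, 1.73, 3.55 and 2.82 in those numbered 3. Numbers 1 and 3 did not overlap, and Snora17 rose by 2.53 ± 0.21 (edgeR adjusted p = 2.18e-06). Snord37, in an intron of the elongation factor gene Eef2, was at 0.130, 0.116, 0.0740 and 0.211 CPM in number 1 and at 1.10, 1.36, 0.773 and 0.792 in number 3. It rose by 2.91 ± 0.34 (adjusted p = 3.06e-05), while Eef2 was at -0.04 ± 0.06. Snora7a, in the ribosomal protein gene Rpl32, was at 0.296 to 0.370 CPM in number 1 and 1.08 to 2.32 in number 3. It rose by 2.18 ± 0.26 (3.18e-05), against 0.45 ± 0.14 for Rpl32.

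Snord19 and Snord69, both in the nucleolar GTPase gene Gnl3, rose by 2.91 ± 0.44 and 1.67 ± 0.28 (edgeR adjusted p = 0.000209 and 0.000452), and Gnl3 rose by 1.53 ± 0.08. Snord22, within an exon of the noncoding host Snhg1, rose by 1.32 ± 0.19 (0.000173) and Snhg1 by 1.24 ± 0.13. Among Mir genes, Mir196a-1 of the Hoxb cluster had a pattern of its own. It was at 0.254 to 0.305 CPM in number 1, at 0.394, 0.202, 0.313 and 0.309 in number 2, and at 1.23, 1.17, 0.701 and 1.00 in number 3. It rose by 1.86 ± 0.26 in number 3 against 1 (0.000128) and by 1.75 ± 0.26 in number 3 against 2 (0.000975). All 12 members named for number 3 against 1 stayed called without any 1 of the 8 libraries. They were picked by the smallest p in this same comparison, so the count is no separate result. The percentage of all genes that stayed called is not given here.

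Of the 41 pairs of a small nucleolar or Cajal body RNA with its host, the member was above the host in 34, with medians of 0.93 and 0.35. The 30 members hosted by ribosomal protein genes had a summed level 2.32-fold higher in number 3 than in number 1, and 1.21-fold higher on PDL than on the other coats. Some lists of cell markers also moved with the number. The sum of 6 astrocyte markers overlapped between numbers 1, 2 and 3 (897 ± 89.2, 867 ± 84.3 and 806 ± 35.8 CPM, SD). So did that of 8 oligodendrocyte markers (162 ± 119, 347 ± 368 and 273 ± 229 CPM, SD). The summed level of 6 microglial markers was 8.59 ± 1.92 CPM in number 1, 23.4 ± 7.50 in number 2 and 35.6 ± 11.0 in number 3 (SD, n = 4 each), that of 5 erythroid genes 96.9 ± 17.1, 201 ± 54.9 and 278 ± 52.2, that of the 8 neuronal markers 10160 ± 289, 9673 ± 601 and 8210 ± 75.3, and that of 8 progenitor markers 607 ± 36.9, 652 ± 71.7 and 921 ± 122. Their part in these differences was not tested.

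**Figure D5:**
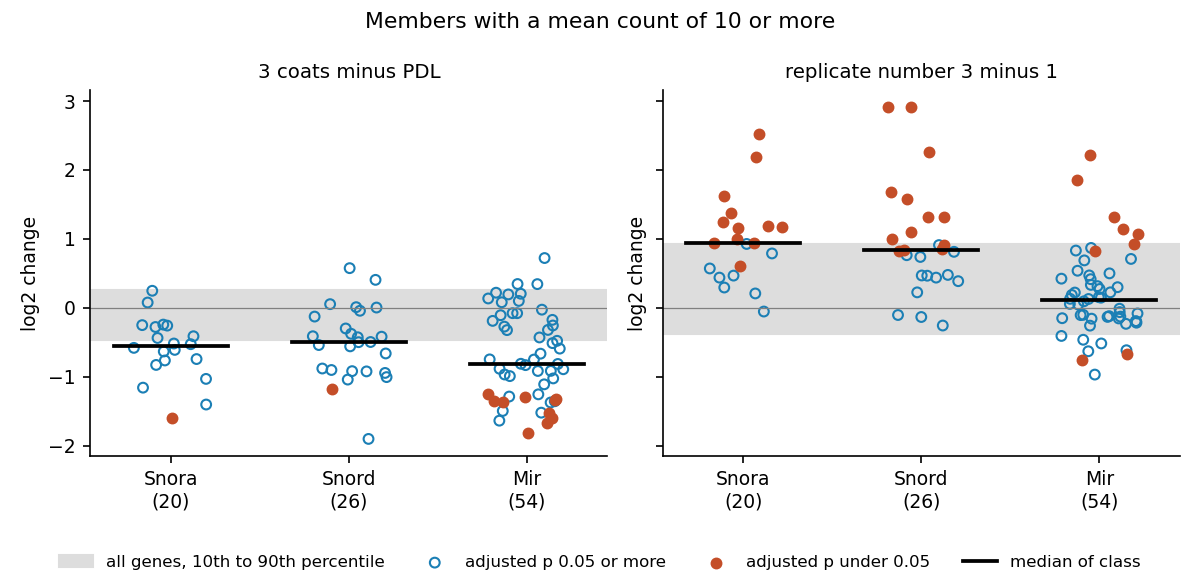
Log2 change of the members with a mean count of at least 10 in Snora (20), Snord (26) and Mir (54) genes, for the 3 coats minus PDL and for replicate number 3 minus 1. The y axis is log2 change; filled points passed the threshold, black bars are class medians, and the grey band spans the 10th to 90th percentile of all genes; the Mir median is the lowest of the 3 in both panels (-0.81 and 0.11).

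Groups of members with a common locus differed in how far PDL stood above the other coats. The 47 microRNA genes of the imprinted Dlk1 to Mirg interval summed to 5.67 to 11.8 CPM on PDL and 1.88 to 5.62 on the other coats, a 2.62-fold difference, and their level in number 3 was 0.688 times that in number 1. PDL and coated libraries did not overlap. Of the noncoding hosts in this interval, Meg3 and Mirg fell, Mirg from 19.7 ± 4.00 to 9.64 ± 1.93 CPM (-1.04 ± 0.16, edgeR adjusted p = 0.00724). Rian, which holds Mir1188 and Mir341, was at 713.5 CPM on PDL and 661.4 elsewhere (-0.11 ± 0.10, adjusted p = 0.516 with the mean count filter), while Mir1188 was at -1.64 ± 0.46 and Mir341 at -1.37 ± 0.42 (0.0580 and 0.0792, and 0.0126 and 0.0167 with the block). The 6 microRNA genes of the Hox clusters, which include Mir10a and Mir10b with their common seed, summed to 2.47 to 2.89 CPM on PDL and 0.994 to 2.26 elsewhere, a 1.85-fold difference. The 5 genes of miR-9 and miR-124 had 10.05 to 11.4 CPM on PDL and 8.05 to 10.6 on the other coats, which overlap. Mir9-2, within an exon of the noncoding gene C130071C03Rik, was at 3.86, 3.60 and 4.04 CPM on PDL and at 3.84 to 5.36 elsewhere (0.19 ± 0.13, edgeR adjusted p = 0.378 with the mean count filter). Mir124a-2 was at 6.75, 6.04 and 5.75 CPM on PDL and at 3.48 to 5.41 elsewhere (-0.43 ± 0.14, edgeR adjusted p = 0.0912 with that filter), and it fell with the block (-0.44 ± 0.11, adjusted p = 0.0129).

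Genes that make and carry these RNAs were counted by lists. Of 18 genes of microRNA biogenesis and action, 5 fell and 0 rose in the 3 coats against PDL, where 5.78% of all genes fell (median -0.20, beside 0.02 for all genes). They were Ago3, an Argonaute (from 31.4 ± 2.22 CPM on PDL to 17.5 ± 4.12, 16.9 ± 0.722 and 17.8 on Laminin, Myelin and laminin plus myelin; edgeR adjusted p = 0.00569), Lin28b, which blocks let-7 processing (0.00947), the Drosha partner Ddx17 (0.0104), Tnrc6a, which silences targets with Argonaute (0.0160), and Srrt (0.0170). Of 16 mostly noncoding hosts of small nucleolar RNAs (Taf1d codes for a protein), 0 passed, and Snhg11 had the smallest p (edgeR adjusted p = 0.0630). Of 6 tested noncoding hosts of microRNAs, 4 fell: Meg3, Mirg, Mir17hg and Mir22hg. None of the 8 genes listed for box C/D particles, 6 for box H/ACA particles and 19 for their assembly passed. The box H/ACA list includes Naf1 and Shq1, which are assembly factors. In these lists, 7, 6 and 12 genes were above 0, and the methyltransferase Fbl had an edgeR adjusted p of 0.196. The block called 24.8% of all genes and 14.8% as lower. With it, the biogenesis list had 9 falls and the snoRNA hosts 5, Taf1d among them. The noncoding microRNA hosts had 4 falls and 1 rise (H19). Box H/ACA proteins then had 2 rises, Nhp2 (0.0376) and Nop10 (0.0461), box C/D proteins 1 rise (Imp3) and 1 fall (Nop56), and assembly genes 1 fall (Papd5).

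In number 3 against number 1, 12 of the 16 snoRNA hosts rose, Taf1d among them, and 2 fell (edgeR), where 23.1% of all genes rose and 20.8% fell. Snhg1 went from 18.8 to 44.2 CPM (1.24 ± 0.13, adjusted p = 1.58e-05), Snhg7 from 3.83 to 8.12 (1.12 ± 0.12) and Gas5 from 87.7 to 145 (0.72 ± 0.09). The falls were Snhg11 (-1.25 ± 0.24) and Rian (-0.27 ± 0.06). The box C/D list had 2 rises of 8 (Nop58 and Mphosph10) and the box H/ACA list 3 of 6 (the assembly factor Naf1, Gar1 and Dkc1). Assembly genes had 1 rise (Papd5) and 3 falls (Coil, Pih1d1 and Xrn2) of 19, and microRNA biogenesis 1 rise (Lin28a) and 3 falls (Tnrc6c, Dgcr8 and Tarbp2) of 18. Of the microRNA hosts, H19 and Mir17hg rose.

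In the authors' deposited table, 8 members had an adjusted p under 0.05 in Myelin against PDL, 5 in laminin plus myelin against PDL and 2 in Laminin against PDL, all lower than on PDL, beside 1.94%, 1.51% and 0.357% of all genes called lower there. The authors' deposited table gives log2 changes of -3.54 for Mir149 and -1.40 for Mir186 in Myelin against PDL and of -1.62 for Mir186 in laminin plus myelin.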

How the data were processed

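The authors deposited raw read counts per gene for the 12 libraries, together with a table of their own log2 changes and adjusted p-values. Per the submitters' processing notes CASAVA 1.8.2, edgeR and builds mm10 and GRCm38 were used; which aligner and counter were run, and whether counting used strand, is not given in the sources used here. Counts without a feature, ambiguous reads (0.579% to 0.717%) and reads aligned to several places (11.5% to 13.6%) stayed out of library sizes. Reads aligned to several places may lower the counts of multicopy members.

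All genes were fitted with edgeR 4.0.16 in R 4.3.3 (filterByExpr, TMM, robust quasi-likelihood test; 15737 genes), with Benjamini-Hochberg adjusted p-values over all genes and a threshold of 0.05. SE is the size of the log2 change divided by the square root of F. DESeq2 1.42.0, other filters, a replicate block and the no_feature share as covariate were alternatives. The coat fit without the block was run on simulated counts with less spread than these data and no effect of replicate number. That run cannot vouch for the fits used here. Libraries of the same number deviated together (r from 0.218 to 0.83 over 18 pairs, with coats' means removed, against -0.77 to 0.243 over 36 pairs of different numbers), so the number was taken as a pairing and the blocked value is printed where it changes a call. Floors and intervals cover counting error only.

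Members and lists were chosen with earlier results of these data known. Named were, in each comparison, the members past the threshold or the 12 with the smallest p, the 5 with the smallest p where none passed, the 6 highest in each class, and their hosts; the text gives those that matter. The mean count filter was added after the data were seen. Sequences come from GENCODE M21 transcripts and RefSeq. Myelin wells without cells were not analysed here.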

Additional observations from a re-analysis of the deposited data

How the results depend on the processing

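With DESeq2, 13, 2, 7 and 27 members were called in Myelin, Laminin, laminin plus myelin and all added coats against PDL. It was fitted to all genes with a count, whereas the edgeR fit, after its expression filter, called 1, 0, 1 and 14. Beside those edgeR calls stood 2.29%, 0%, 1.25% and 6.34% of all genes. With the replicate block the counts were 34, 14, 26 and 53, beside 14.4%, 8.15%, 13.6% and 24.8% of all genes called in either direction. With DESeq2 size factors and the block they were 34, 16, 27 and 53. The mean count filter with the block gave 26, 13, 22 and 42. Without a filter and with the block there were 29, 14, 22 and 69. Where no percentage of all genes is printed, the counts cannot be read as particular to members. With the no_feature share as covariate, with or without the block, they were 0. Number 2 against 1 gave 12 calls without the coat term, where it gave 23 with it. Number 3 against 2 gave 1 without the 3 PDL libraries. The share gave 0 calls with the coat term, 7 with coat and block and 0 without the PDL libraries, where it gave 57. The Scarna difference between PDL and the other coats was 0.748 CPM and 0.556 without Scarna13. The cause of these shifts was not tested.

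Leaving out 1 library gave 0 to 1 calls for Myelin, 0 for Laminin and 0 to 1 for laminin plus myelin against PDL (0 to 36, 0 to 24 and 0 to 27 with the block), and 0 to 19 for all coats against PDL (11 to 67). Myelin against Laminin and the interaction gave 0 (0 to 2 and 0 to 1 with the block). Number 2 against 1 gave 11 to 25, number 3 against 1 gave 37 to 49, number 3 against 2 gave 1 to 3 and the share 28 to 63. The percentage of all genes called in these fits is not given here, so the ranges cannot be read as particular to members. The class difference between PDL and the other coats ranged from 5.42 to 10.12 CPM for Snora, 6.35 to 12.8 for Snord, 0.688 to 0.798 for Scarna and 42.6 to 51.5 for Mir genes.

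Reversed signs came with the share as covariate: 0.28 for Snord98 in Laminin against PDL, and 0.0274 for Mir1839 and 0.48 for Snord53 in all coats against PDL. With block and share these were 6.3e-05 for Mir1839 and 0.33 for Mir186 in Laminin against PDL; 0.11 for Mir186, 0.43 for Mir149, 0.52 for Mir344-2, 0.0735 for Mir1839, 0.10 for Mir125a and 0.31 for Mir1898 in all coats; and -1.08 for Mir1188 in the interaction. Of the values for named members under alternatives, 1454 kept direction and side of the threshold, 136 lost the threshold, 35 gained it and 12 changed sign. Low counts limit most Mir genes.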
